A study of Homo sapiens with 6 samples.

Results

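The human reference assembly hg38 holds 430 sequences beside the chromosomes and the mitochondrial sequence, and 1407 of the 23953 deposited ChIP-seq peaks lay on them. These peaks were taken from the 4 peak lists by the name of the sequence alone: 494 lay on alternate sequences and 913 on unlocalized and unplaced sequences. The lists came from SH-SY5Y cells, a human neuroblastoma line, stably expressing 82-kDa ChAT, the nuclear form of choline acetyltransferase, and treated with retinoic acid for 3 days. Cells then received vehicle or 100 nM Aβ1–42 oligomers for 4 h, and chromatin was precipitated with an antibody to the C-terminus of ChAT or an antibody to SATB1, a protein that anchors chromatin loops to the nuclear matrix. Each of the 4 groups, 82-kDa ChAT after vehicle, 82-kDa ChAT after Aβ1–42, SATB1 after vehicle and SATB1 after Aβ1–42, is 1 library from 3 plates of cells of the same transfected line. No test between groups was therefore made, and each 95% interval given here is for counting error alone, with neighbouring peaks of a library not independent of one another. Peak lists do not give sequencing depth.

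An alternate sequence is another version of a chromosomal region that differs between people, and most of it has a close copy on a chromosome. An unlocalized sequence is known to come from a given chromosome but has no place on it, and an unplaced sequence has not been tied to any chromosome. Much of the DNA of the latter kinds is repetitive, including satellite DNA of the regions around centromeres, where human satellites 2 and 3 are built of diverged copies of the pentamer CATTC, which reads as GAATG on the other strand. Other sequences hold ribosomal RNA genes, whose 45S units stand in tandem with a long spacer between one unit and the next. Reads from such repeats can map to more than one place, and a short sequence of the assembly can stand for many copies in a cell.

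The base sequences under the peaks show what these regions are made of. For each of the 5 sequences with the most peaks over the 4 lists, the highest-scoring peak of 60 to 300 nt is printed here on the forward strand of hg38. All 5 came from the list for 82-kDa ChAT after vehicle. That list had the most peaks on each of these sequences, and scores are not comparable between lists, so this follows largely from the choice. Capitals mark each CATTC or GAATG, and in the first peak they mark the 12-mer CTGCACTGATCA (TGATCAGTGCAG on the other strand), which more peaks of that sequence held than any other 12-mer.
chr14_GL000225v1_random:133685-133895: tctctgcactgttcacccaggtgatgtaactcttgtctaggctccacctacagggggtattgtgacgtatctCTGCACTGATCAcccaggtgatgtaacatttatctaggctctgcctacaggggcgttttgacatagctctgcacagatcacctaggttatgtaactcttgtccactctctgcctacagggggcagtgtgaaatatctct
chrUn_GL000216v2:15516-15805: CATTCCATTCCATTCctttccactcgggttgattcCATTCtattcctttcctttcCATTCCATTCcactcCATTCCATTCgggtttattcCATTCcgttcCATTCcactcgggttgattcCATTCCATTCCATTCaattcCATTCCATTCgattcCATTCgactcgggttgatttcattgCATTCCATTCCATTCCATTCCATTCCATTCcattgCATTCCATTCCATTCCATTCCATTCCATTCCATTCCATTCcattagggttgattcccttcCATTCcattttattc
chr22_KI270736v1_random:126683-126924: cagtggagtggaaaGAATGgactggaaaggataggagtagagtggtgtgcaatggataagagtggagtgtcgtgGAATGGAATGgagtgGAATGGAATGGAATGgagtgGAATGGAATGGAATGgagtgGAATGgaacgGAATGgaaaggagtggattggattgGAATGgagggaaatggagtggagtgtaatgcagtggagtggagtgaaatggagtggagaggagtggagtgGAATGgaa
chr17_KI270729v1_random:54529-54821: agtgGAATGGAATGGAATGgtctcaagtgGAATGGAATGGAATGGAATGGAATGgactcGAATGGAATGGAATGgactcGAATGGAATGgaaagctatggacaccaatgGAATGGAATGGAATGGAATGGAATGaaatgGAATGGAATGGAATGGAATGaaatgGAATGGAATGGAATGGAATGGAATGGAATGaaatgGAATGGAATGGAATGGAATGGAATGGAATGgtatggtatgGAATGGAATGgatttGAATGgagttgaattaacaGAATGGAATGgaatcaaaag
chrUn_KI270442v1:50894-51007: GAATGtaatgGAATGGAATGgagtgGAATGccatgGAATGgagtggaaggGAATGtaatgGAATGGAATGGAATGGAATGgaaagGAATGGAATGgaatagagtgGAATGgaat
The peak on chrUn_GL000216v2 held 31 pentamers in 290 nt, or 10.7 per 100 nt. Pentamers were denser on chr17_KI270729v1_random (39 in 293 nt, 13.3 per 100 nt) and chrUn_KI270442v1 (13 in 114 nt, 11.4 per 100 nt), and less dense on chr22_KI270736v1_random (13 in 242 nt, 5.37 per 100 nt). The peak on chr14_GL000225v1_random held none. Across these 5 peaks, between 0% and 31.7% of the 51-mers also occurred on the chromosomes.

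Peaks outside the chromosomes made up a larger share of the lists after vehicle than after Aβ1–42. The list for 82-kDa ChAT after vehicle held 810 of them among 8270 peaks, a share of 9.79% (95% exact interval 9.16–10.5). After Aβ1–42 it held 218 of 6563 (3.32%, 2.90–3.78). SATB1 had 181 of 3065 after vehicle (5.91%, 5.10–6.80) and 198 of 6055 after Aβ1–42 (3.27%, 2.84–3.75). None of the 4 lists had a peak on the mitochondrial sequence. The known bases of these sequences were 3.66% of those of the assembly without the mitochondrial sequence, so the shares after Aβ1–42 were near that of the bases and those after vehicle above it.

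The kinds of sequence differed in this. Unlocalized and unplaced sequences carried 606 peaks of 82-kDa ChAT after vehicle (7.33% of the list, 6.78–7.91) and 120 after Aβ1–42 (1.83%, 1.52–2.18). For SATB1 they carried 120 after vehicle (3.92%, 3.26–4.66) and 67 after Aβ1–42 (1.11%, 0.859–1.40). On alternate sequences the shares were 2.47% (204 peaks) and 1.49% (98 peaks) after vehicle and Aβ1–42 for 82-kDa ChAT, and 1.99% (61 peaks) and 2.16% (131 peaks) for SATB1. For SATB1 the number of peaks on alternate sequences was higher after Aβ1–42, as was the number on the chromosomes (5857 against 2884), whereas the number on unlocalized and unplaced sequences was lower.

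Peaks were dense on unlocalized and unplaced sequences. For 82-kDa ChAT after vehicle there were 0.0533 peaks per kb of known bases on unlocalized (95% Poisson interval 0.0479–0.0591) and 0.0582 on unplaced sequences (0.0513–0.0659), against 0.00254 on the chromosomes. That is 20.98 and 22.9 times the density of the chromosomes. After Aβ1–42 the densities were 0.00993 and 0.0125 peaks per kb, or 4.60 and 5.78 times that of the chromosomes (0.00216). For SATB1 after vehicle they were 0.0114 and 0.0102 peaks per kb, 11.7 and 10.4 times the 0.000982 of the chromosomes, and after Aβ1–42 they were 0.00482 and 0.00809, 2.42 and 4.06 times the 0.00199 of the chromosomes. Alternate sequences had fewer peaks per kb than the chromosomes in every list, from 0.451 times (82-kDa ChAT after Aβ1–42) to 0.798 times (82-kDa ChAT after vehicle).

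**Figure D1:**
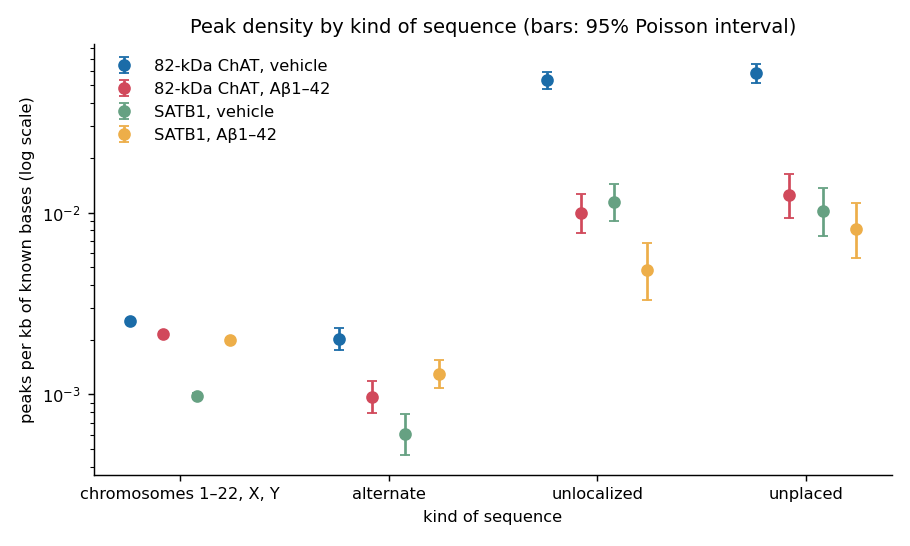
Peaks per kb of known bases (vertical, log scale) on the chromosomes and on the 3 kinds of other sequence with 95% Poisson intervals, for each of the 4 peak lists. Unlocalized and unplaced sequences lie above the chromosomes in all 4 lists, most in that for 82-kDa ChAT after vehicle, and alternate sequences lie below them.

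The peaks were spread unevenly over the sequences. In all, 227 of the 430 sequences had a peak in any list, of which 155 were alternate, 34 unlocalized and 38 unplaced. In the list for 82-kDa ChAT after vehicle, 144 sequences had a peak and the 5 with the most held 42.3% of the 810 peaks, with 86 on chr14_GL000225v1_random, 81 on chrUn_GL000216v2, 71 on chr22_KI270736v1_random, 56 on chr17_KI270729v1_random and 49 on chrUn_KI270442v1. After Aβ1–42 the same sequences held 6, 14, 13, 11 and 9 peaks, and the 5 leading sequences, of which chr5_GL339449v2_alt with 7 peaks was the fifth, held 24.8%. The 5 leading sequences held 32.0% of the peaks of SATB1 after vehicle and 17.7% after Aβ1–42, and 50% of the peaks were reached with 7, 20, 14 and 24 sequences in the 4 lists. The sequence chr5_GL339449v2_alt had no peak of 82-kDa ChAT after vehicle.

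SATB1 after vehicle had 26 of its 181 peaks (14.4%) on chr14_GL000225v1_random, 12 on chr22_KI270736v1_random and 8 on chrUn_GL000216v2. It had 6 on chr15_KI270905v1_alt and 6 on chr17_KI270729v1_random. After Aβ1–42 the order was different: chr15_KI270905v1_alt led with 9 of 198 peaks, followed by chr16_KI270853v1_alt and chrUn_GL000216v2 with 7 each and by chr17_KI270857v1_alt and chr6_GL000251v2_alt with 6 each. The alternate sequences among these are long, from 2659700 to 5161414 nt, and their densities were low, from 0.00125 to 0.00263 peaks per kb. The sequence chr14_GL000225v1_random had 4 peaks of SATB1 after Aβ1–42, so that its density was 0.407 peaks per kb for 82-kDa ChAT and 0.123 for SATB1 after vehicle, and 0.0284 and 0.0189 after Aβ1–42.

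Ranked by density among sequences with at least 3 peaks, chrUn_GL000216v2 was first in 3 lists, with 0.459 peaks per kb (0.365–0.571) for 82-kDa ChAT after vehicle, 0.0794 (0.0434–0.133) after Aβ1–42 and 0.0397 (0.0160–0.0818) for SATB1 after Aβ1–42. For SATB1 after vehicle it was chr14_GL000225v1_random (0.0804–0.1804). The sequence chr22_KI270736v1_random was among the 3 densest in every list, with 0.419, 0.0766, 0.0707 and 0.0295 peaks per kb in the same order of lists as before, chr17_KI270730v1_random ranked 3 for 82-kDa ChAT after Aβ1–42 (0.0563), and chrUn_KI270756v1 ranked 2 for SATB1 after Aβ1–42 with 3 peaks (0.0377). The intervals of the 3 densest sequences overlapped within each list. A peak in all 4 lists was found on 26 sequences, 9 alternate, 9 unlocalized and 8 unplaced, and the 5 of them with the most peaks were those whose sequences are printed here, with 122, 110, 101, 75 and 67 peaks.

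**Figure D2:**
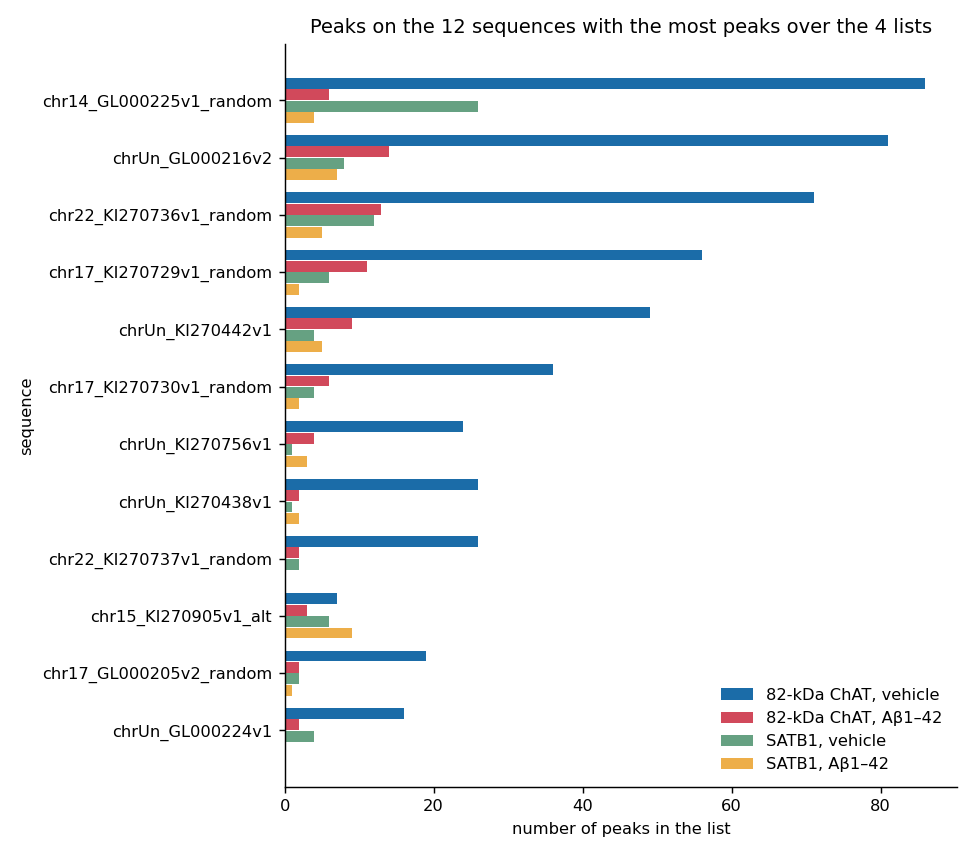
Number of peaks (horizontal) in each of the 4 lists on the 12 sequences with the most peaks over all lists. Each group of bars is 1 sequence, and the longest bars, 86 and 81 peaks, belong to 82-kDa ChAT after vehicle. The alternate sequence chr15_KI270905v1_alt is the one on which SATB1 after Aβ1–42 had the most peaks of the 4 lists.

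Among the 5 sequences with the most peaks, all peaks of chr22_KI270736v1_random and chr17_KI270729v1_random lay in windows rich in pentamers, and few of chr14_GL000225v1_random did. Each sequence was cut into windows of 1000 nt, and a window was called pentamer-rich at 3 or more CATTC or GAATG per 100 nt. A peak was counted in the window that held its midpoint. On chrUn_KI270442v1, a sequence whose commonest repeat distance was that of alpha satellite DNA, 21.3% of the known bases were in pentamer-rich windows, which held 46 of 49 peaks of 82-kDa ChAT after vehicle, 7 of 9 after Aβ1–42, 2 of 4 of SATB1 after vehicle and 5 of 5 after Aβ1–42. On chrUn_GL000216v2, 49.8% of the bases were pentamer-rich, and all 14 peaks of 82-kDa ChAT and all 7 of SATB1 after Aβ1–42 were there. After vehicle, 62 of 81 peaks of 82-kDa ChAT and 3 of 8 of SATB1 were in that part, and 8 peaks are too few to set the proteins apart. On chr22_KI270736v1_random and chr17_KI270729v1_random every peak of the 4 lists was in a pentamer-rich window, with 73.4% and 76.6% of the bases. By their own bases, 74 of the 75 peaks on chr17_KI270729v1_random reached 3 pentamers per 100 nt.

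On chr14_GL000225v1_random the peaks lay elsewhere. Of its bases 5.69% were pentamer-rich, and 9 of 86 peaks of 82-kDa ChAT and 1 of 26 of SATB1 after vehicle were in those windows. Its commonest repeat distance was 69 nt, at which only 1.23% of its 12-mers recurred. The 12-mer CTGCACTGATCA (or TGATCAGTGCAG on the other strand) stood 675 times in its 211173 nt. This 12-mer was in 108 of the 122 peaks on the sequence, by list in 76 of 86, 5 of 6, 25 of 26 and 2 of 4, but in 25 of 791 peaks on the other unlocalized and unplaced sequences, 0 of 494 on alternate sequences and 54 of 22546 on the chromosomes. The word was chosen from these peaks, so that its share in them is a description.

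**Figure D3:**
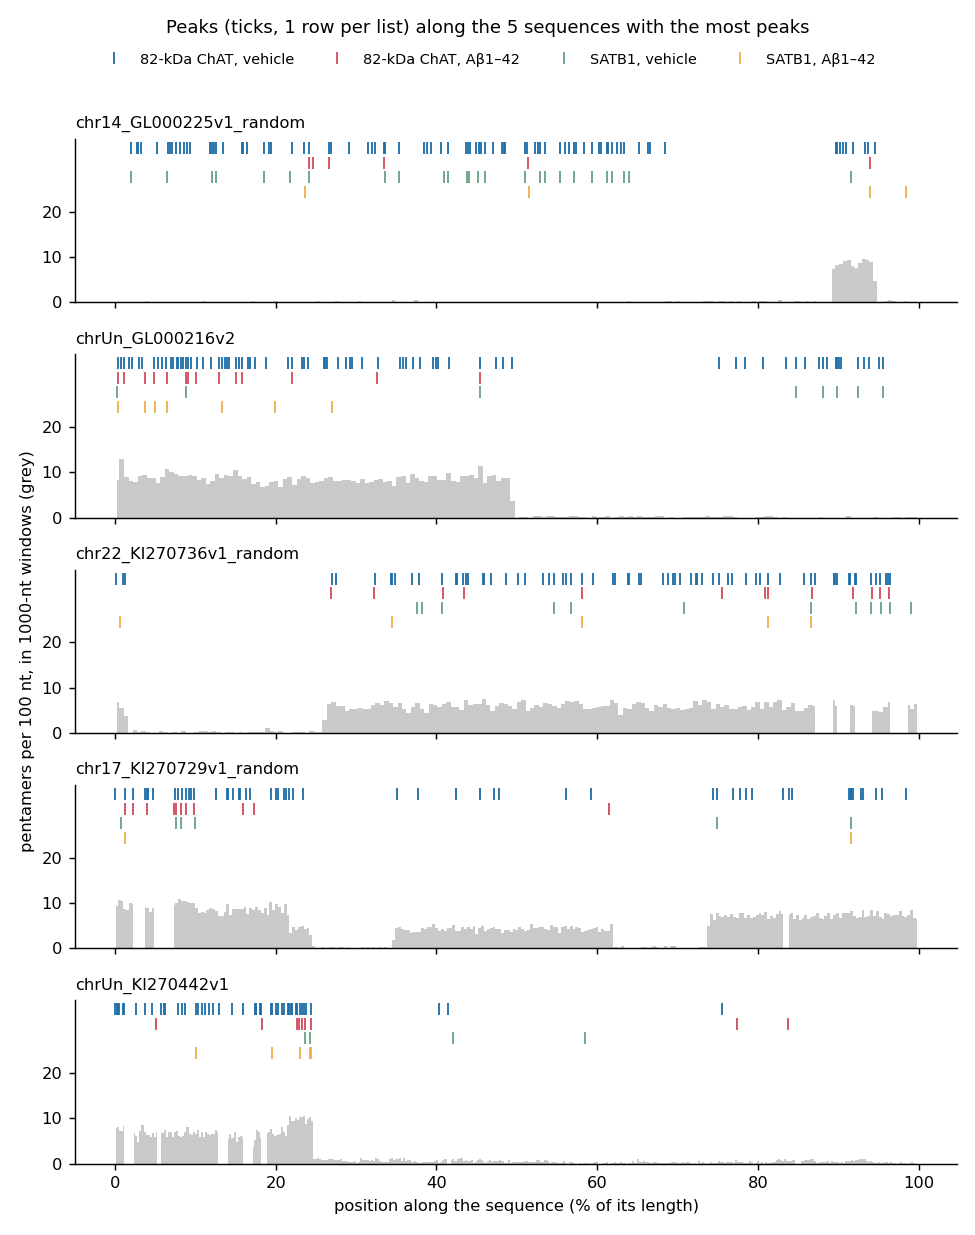
Peaks (ticks, 1 row per list) along the 5 sequences with the most peaks, by position in percent of sequence length, over the number of pentamers per 100 nt in windows of 1000 nt (grey; blank where fewer than 500 bases are known). On 4 of the sequences most ticks stand over the grey blocks, and on chr14_GL000225v1_random most stand outside them.

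Over all unlocalized and unplaced sequences, 8.93% of the known bases were in pentamer-rich windows, against 0.0961% on the chromosomes. These windows held 388 peaks (64.3%) of 82-kDa ChAT after vehicle and 67 (55.8%) after Aβ1–42. For SATB1 they held 35 (29.4%) after vehicle and 28 (41.8%) after Aβ1–42. Within pentamer-rich windows the intervals of these sequences and of the chromosomes overlapped in 3 lists: 0.397 peaks per kb (0.359–0.439) and 0.404 on the chromosomes (0.381–0.428) for 82-kDa ChAT after vehicle, 0.0686 (0.0531–0.0871) and 0.0829 (0.0726–0.0942) after Aβ1–42, and 0.0287 (0.0190–0.0414) and 0.0322 (0.0260–0.0396) for SATB1 after Aβ1–42. For SATB1 after vehicle it was lower on unlocalized and unplaced sequences than on the chromosomes, at 0.0358 (0.0249–0.0498) against 0.0655 (0.0564–0.0757).

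In the other windows the density on unlocalized and unplaced sequences was higher than on the chromosomes in each list. It was 0.0216 peaks per kb (0.0188–0.0247) against 0.00215 for 82-kDa ChAT after vehicle and 0.00532 (0.00398–0.00696) against 0.00208 after Aβ1–42. For SATB1 it was 0.00843 (0.00672–0.0104) against 0.000919 after vehicle and 0.00392 (0.00278–0.00535) against 0.00196 after Aβ1–42. Without chr14_GL000225v1_random the values on unlocalized and unplaced sequences in the 4 lists were 0.0141, 0.00492, 0.00604 and 0.00369 peaks per kb, so that leaving out 1 sequence lowered the values after vehicle the most.

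**Figure D4:**
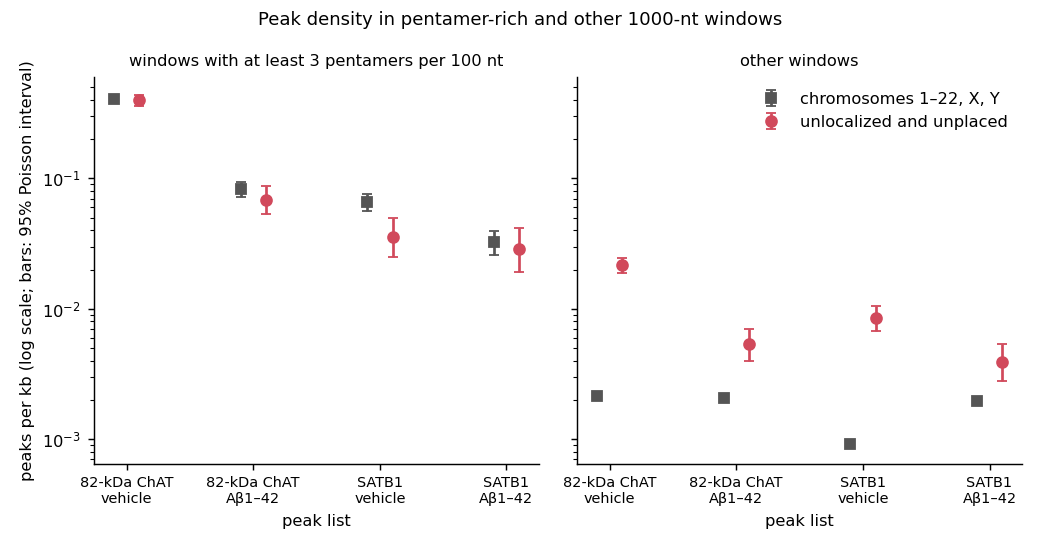
Peaks per kb (vertical, log scale, with 95% Poisson intervals) in pentamer-rich windows of 1000 nt (left) and in all other windows (right), on the chromosomes (squares) and on unlocalized and unplaced sequences (circles), for each of the 4 lists. On the left the symbols lie close together except for SATB1 after vehicle, and on the right the circles lie above the squares in each list.

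Peak by peak, the repeat content was described by 3 measures: 3 or more pentamers per 100 nt (pentamer-rich), more than 50% of 51-mers found more than once in the assembly (multi-copy), and more than 50% of 51-mers found on the chromosomes. On unlocalized and unplaced sequences 389 of 606 peaks of 82-kDa ChAT after vehicle were pentamer-rich (64.2%, 60.2–68.0), against 16.0% of its peaks on the chromosomes, a difference of 48.2 percentage points (Newcombe interval 44.2–52.0). After Aβ1–42 it was 55.8% against 4.19% (difference 51.6, 42.7–60.2). For SATB1 it was 30% against 6.83% after vehicle (difference 23.2, 15.6–31.9) and 41.8% against 1.66% after Aβ1–42 (difference 40.1, 29.1–52.1). On alternate sequences the shares were 14.2%, 2.04%, 4.92% and 0%, and each interval of the difference from the chromosomes included 0. The pentamer-rich alternate peaks were unevenly spread, with 15 on chr2_KI270772v1_alt and 13 on chr2_KI270894v1_alt over the 4 lists. None of the 131 alternate peaks of SATB1 after Aβ1–42 was pentamer-rich, and the exact interval reached 2.78%.

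The pentamer-rich peaks were not mostly multi-copy. On unlocalized and unplaced sequences, 98 of the 389 pentamer-rich peaks of 82-kDa ChAT after vehicle were multi-copy (25.2%), and 100 of the 217 others (46.1%). In the other lists the pair of shares was 20.9% and 62.3% for 82-kDa ChAT after Aβ1–42, 16.7% and 71.4% for SATB1 after vehicle and 14.3% and 82.1% after Aβ1–42. In most pentamer-rich peaks at least 50% of the 51-mers were thus found once in the assembly. On alternate sequences between 94.6% and 96.7% of peaks were multi-copy, as were 96.7% of the 51-mers of these sequences in general. More than 50% of 51-mers were also on the chromosomes for 17.2% of the unlocalized and unplaced peaks of 82-kDa ChAT after vehicle and 27.5% after Aβ1–42, and for 33.3% and 49.3% of those of SATB1. A peak was called periodic where at least 5% of the 12-mers in the 2000 nt around it recurred at 1 distance. This held for 112 of 204, 24 of 98, 17 of 61 and 20 of 131 alternate peaks in the 4 lists. Of the 112, 1 had a distance of 5 nt. On unlocalized and unplaced sequences 225 of 606, 50 of 120, 46 of 120 and 20 of 67 were periodic. Peaks on the chromosomes were not scored in this way.

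The list for SATB1 after Aβ1–42 held most of the matches to the 7SL RNA gene, from which the Alu repeats of the human genome descend. Of its 131 peaks on alternate sequences 74 matched (56.5%, 47.5–65.1), close to 53.6% on the chromosomes. On unlocalized and unplaced sequences 14 of 67 matched (20.9%, 11.9–32.6), 32.7 percentage points fewer than on the chromosomes (21.5–40.8). In the other lists 0.330% to 2.50% of the unlocalized and unplaced peaks matched. On the chromosomes it was 2.80% and 4.95% for 82-kDa ChAT after vehicle and Aβ1–42, and 2.43% for SATB1 after vehicle. Among these lists, the interval of the difference lay below 0 only for 82-kDa ChAT after vehicle (−2.47 points, −2.94 to −1.54). The binding site of the centromere protein CENP-B was in 2 of the 1407 peaks outside the chromosomes, 1 of 82-kDa ChAT and 1 of SATB1, both after Aβ1–42 and on unplaced sequences. On the chromosomes it was in 0.737%, 0.615%, 2.67% and 1.38% of the peaks of the 4 lists, and for SATB1 after vehicle 0 of 181 peaks outside them held it (difference −2.67 points, −3.32 to −0.526). The hexamer TTAGGG (or its complement), the unit of telomere repeats, was counted from a single copy, which does not mark a telomere array. It was in 12, 7, 4 and 7 peaks outside the chromosomes in the 4 lists, and in 2.85%, 2.69%, 3.57% and 0.854% of those on the chromosomes. For 82-kDa ChAT after vehicle it was in 6 of 606 on unlocalized and unplaced sequences (0.990%), fewer than on the chromosomes (difference −1.87 points, −2.54 to −0.659). For SATB1 after Aβ1–42 it was in 5 of 67 on unlocalized and unplaced sequences (7.46%), more than on the chromosomes (difference 6.61 points, 2.37–15.5). These peaks were also longer (mean 496 nt against 147 nt on the chromosomes), and the part of length was not tested. In the other lists the interval of this difference included 0.

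Not counting chr14_GL000225v1_random, the unlocalized and unplaced peaks that were not pentamer-rich were spread over many sequences. There were 393 such peaks of 913, with 110 on chr14_GL000225v1_random. The next were chr17_GL000205v2_random with 24, chrUn_GL000216v2 with 24 and chrUn_GL000224v1 with 22. The commonest repeat distance was 48 nt on chr17_GL000205v2_random, chrUn_GL000224v1, chr1_KI270708v1_random and chrUn_KI270741v1, and every peak on these 4 sequences (24, 22, 11 and 8) was below the pentamer limit.

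Peaks on unlocalized and unplaced sequences were longer than those on the chromosomes. Median lengths on unlocalized and unplaced sequences were 205.5 nt (quartiles 135.2–335) against 135 nt on the chromosomes (106–178) for 82-kDa ChAT after vehicle and 181.5 nt (107.5–524) against 110 nt (82–134) after Aβ1–42. For SATB1 they were 226.5 nt (135–511) against 130 nt (105–153) after vehicle and 175 nt (114.5–578) against 134 nt (115–148) after Aβ1–42. On alternate sequences the median was 164 nt (95% interval 149–185) for 82-kDa ChAT after vehicle, above the chromosomes, and 102, 134 and 134 nt in the other lists, each with an interval that included the median of the chromosomes. Of the peaks longer than 1000 nt, 29 of 145, 13 of 68, 16 of 52 and 8 of 38 lay outside the chromosomes in the 4 lists (20%, 19.1%, 30.8% and 21.1%), and none of these was on an alternate sequence. With these included, the mean length on unlocalized and unplaced sequences for 82-kDa ChAT was 324 ± 443 nt after vehicle (SD over 606 peaks) and 451 ± 730 nt (120 peaks) after Aβ1–42, and 540 ± 1237 nt (120 peaks) and 496 ± 845 nt (67 peaks) for SATB1.

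**Figure D5:**
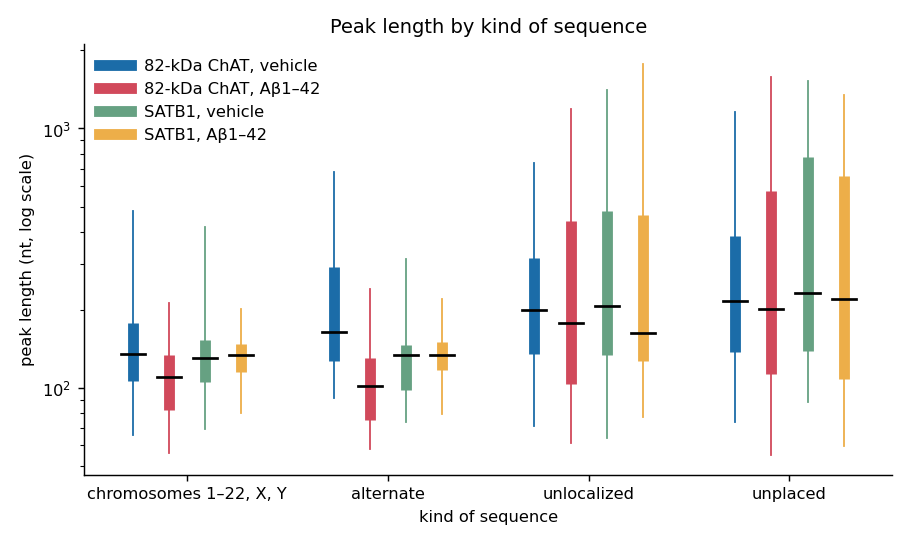
Peak length in nt (vertical, log scale) by kind of sequence and list. Black lines are medians, thick bars the quartiles and thin lines the 5th to 95th percentiles over peaks. The medians on unlocalized and unplaced sequences lie above those of the chromosomes in each list, with wider bars.

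The score of a peak, 10 times the negative log10 of its p-value, ranks peaks within a list and is not comparable between lists. The highest score of the list was outside the chromosomes in 3 of the 4 lists and on the same region, near the start of chr17_KI270729v1_random. It was 3195 at 881–6160 for 82-kDa ChAT after vehicle, 715 at 889–6150 after Aβ1–42 and 350 at 924–6055 for SATB1 after Aβ1–42. The highest scores on the chromosomes in these lists were 3100, 525 and 236. Whether the round value of 3100 is a ceiling of the score was not tested, so the first rank of 3195 in its list is uncertain. For 82-kDa ChAT after vehicle the next outside the chromosomes were chr4_GL000008v2_random:1708-5068 (score 1171, rank 13 of the list) and chrUn_GL000216v2:6-1149 (1107, rank 15). After Aβ1–42 they were chrUn_GL000216v2:2-1504 (302, rank 7) and chr4_GL000008v2_random:894-3852 (182.1, rank 19), so the same 3 sequences led both lists of 82-kDa ChAT. For SATB1 after vehicle the highest was chrUn_GL000220v1:122169-134633 (478, rank 2), a stretch of 12465 nt, followed by chr17_KI270730v1_random:106875-107199 (455) and chr17_KI270730v1_random:107394-107695 (412). For SATB1 after Aβ1–42 the second was chr14_GL000194v1_random:50581-50636 (140, rank 20), a peak of 56 nt without a pentamer, and then chrUn_GL000216v2:2-1461 (131, rank 34). Median scores outside and on the chromosomes were close, at 71.8 and 66.6 for 82-kDa ChAT after vehicle, 61.5 and 63.6 after Aβ1–42, 65.5 and 65.8 for SATB1 after vehicle and 66.2 and 66.4 after Aβ1–42.

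Overlap between the lists was compared next, counting a shared base as overlap. Of all peaks of 82-kDa ChAT after vehicle 5.59% overlapped a peak after Aβ1–42, and of those on unlocalized and unplaced sequences 68 of 606 did (11.2%, 8.82–14.0). In the other direction it was 6.83% of all peaks after Aβ1–42 and 60 of 120 on unlocalized and unplaced sequences (50%, 40.7–59.3), against 6.01% on the chromosomes. On alternate sequences 7 of 204 and 7 of 98 overlapped. For SATB1 the overlap between treatments was 1.89% of all peaks after vehicle and 0.908% after Aβ1–42. On unlocalized and unplaced sequences 10 of 120 (8.33%, 4.07–14.8) and 10 of 67 (14.9%, 7.40–25.7) did, and on alternate sequences 1 of 61 and 1 of 131.

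Overlap between the proteins was counted within each treatment. Of all SATB1 peaks after vehicle 24.6% overlapped a peak of 82-kDa ChAT after vehicle, and of those on unlocalized and unplaced sequences 69 of 120 (57.5%, 48.2–66.5), against 23.1% on the chromosomes. In the other direction it was 9.35% of all peaks of 82-kDa ChAT and 74 of 606 (12.2%, 9.71–15.1). After Aβ1–42 the overlap was 3.95% of all SATB1 peaks and 19 of 67 on unlocalized and unplaced sequences (28.4%, 18.0–40.7), and 3.76% of all peaks of 82-kDa ChAT and 18 of 120 (15%, 9.14–22.7). The labels list 1 input sample per treatment, not analysed here, and its part in the overlap was not tested. Peaks on unlocalized and unplaced sequences were also longer and denser than those on the chromosomes, and the part of length and density in these shares was not tested.

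Joined over the lists, the 1407 peaks formed 1198 regions. Of these, 1048 had peaks of 1 list, 113 of 2, 31 of 3 and 6 of all 4. Of the 460 regions on alternate sequences 431 had peaks of 1 list, as had 358 of 428 on unlocalized and 259 of 310 on unplaced sequences. Peaks on the chromosomes were not joined in this way. Over the whole lists, only 0.908% to 6.83% of peaks overlapped a peak of the other treatment. The counts of regions with 1 list are therefore not a trait shown to be particular to these sequences.

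The 6 regions with all 4 lists were of 3 sorts. Those in pentamer repeats were 4. On chr17_KI270729v1_random:881-6160 (9.66 pentamers per 100 nt) the highest scores were 3195, 715, 260 and 350 for 82-kDa ChAT after vehicle and Aβ1–42 and SATB1 after vehicle and Aβ1–42. On chrUn_GL000216v2:2-1504 (9.38 per 100 nt), which began at the second base of that sequence, they were 1107, 302, 67.0 and 131. On chrUn_KI270442v1:94537-96819 (10.9 per 100 nt) they were 612, 110, 62.9 and 58.5, and on chr22_KI270736v1_random:157190-158013 (6.31 per 100 nt) 361, 58.4, 50.1 and 63.3. The fifth region, chrUn_GL000220v1:122169-134633, lay in the spacer of ribosomal DNA.

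The sixth region, chr16_KI270854v1_alt:106809-107314, was the one on an alternate sequence, with scores of 170.6, 133, 80.2 and 52.8. All 4 peaks covered a stretch of 377 nt, whose middle 300 nt are printed here with each CCCCTCACCTCC in capitals, the commonest 12-mer of the stretch. It held 13 copies, 17 to 59 nt from one to the next, 65.3% G and C, and no pentamer.
chr16_KI270854v1_alt:106898-107197: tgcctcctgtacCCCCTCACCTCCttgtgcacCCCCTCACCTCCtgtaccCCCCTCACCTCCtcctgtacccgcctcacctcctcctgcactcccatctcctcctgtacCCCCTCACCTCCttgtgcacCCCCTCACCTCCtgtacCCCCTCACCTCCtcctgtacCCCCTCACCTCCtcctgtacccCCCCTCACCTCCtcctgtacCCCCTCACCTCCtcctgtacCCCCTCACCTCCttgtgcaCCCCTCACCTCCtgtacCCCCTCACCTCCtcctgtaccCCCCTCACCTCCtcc

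In ribosomal DNA the peaks of all lists lay outside the 45S units. The 45S unit RNA45SN1 of chromosome 21 had matches of at least 99.6% identity at chrUn_GL000220v1:105424-118780 and chrUn_GL000220v1:149396-161802, and at chr22_KI270733v1_random:122273-135645 and chr22_KI270733v1_random:167355-179772. Between the first and the last of these units lay 7 peaks on chrUn_GL000220v1 and 12 on chr22_KI270733v1_random, and none of these shared a base with a 45S unit, the transcribed part. On chrUn_GL000220v1 the peak of 82-kDa ChAT after vehicle with the highest score (405) started 7510 nt after the end of the 45S unit and was 3559 nt long. That after Aβ1–42 (55.7) started 6833 nt after it and was 4206 nt long. The SATB1 peak after vehicle (478) started 3388 nt after it and was 12465 nt long, and the longer of the 2 after Aβ1–42 (95.3) started 6630 nt after it and was 4053 nt long. Between the units of chr22_KI270733v1_random there were 3 peaks of 82-kDa ChAT after vehicle, none after Aβ1–42, and 4 and 5 of SATB1, which had 1 more peak after vehicle elsewhere on the sequence. Around the units of chromosome 21 there were 5, 1, 4 and 4 peaks, and none in a 45S unit. The highest score of the list for SATB1 after vehicle, 484, was among these, at chr21:8225014-8236191. Of the 51-mers of chrUn_GL000220v1:122169-134633, 100% also occurred on the chromosomes. The study aligned reads with repeat masking, and whether peaks could be called in the near-identical units was not tested.

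Peaks near the ends of sequences were counted as well. On unlocalized and unplaced sequences 2.69% of the length lay within 1000 nt of an end, and 16 of 606, 5 of 120, 11 of 120 and 2 of 67 peaks of the 4 lists touched that part (2.64%, 4.17%, 9.17% and 2.99%). The interval for SATB1 after vehicle was 4.66–15.8%, above the share of the length, and the other 3 intervals included that share. The share of the length takes no account of peak length, and a longer peak can touch an end part more easily. The part of peak length was not tested.

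Peaks on alternate sequences were set against the chromosomes, since most of these sequences have a counterpart there. Of the alternate peaks, 185 of 204, 94 of 98, 59 of 61 and 126 of 131 in the 4 lists had a match of at least 95% identity over at least 80% of their length on a chromosome. A peak of the same list at the best match was found for 60 of 204 (29.4%, 23.3–36.2), 11 of 98 (11.2%, 5.74–19.2), 6 of 61 (9.84%, 3.70–20.2) and 10 of 131 (7.63%, 3.72–13.6). Most alternate peaks thus had a close copy on a chromosome and no peak in it. Of the peaks on unlocalized and unplaced sequences, 32.8% and 44.2% matched a chromosome for 82-kDa ChAT after vehicle and Aβ1–42, and 57.5% and 55.2% for SATB1.

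Alternate peaks were placed on their own chromosome with 500 nt on each side, which gave a place to 156 of 204, 86 of 98, 53 of 61 and 120 of 131 peaks. Of the placed peaks 41.0%, 43.0%, 47.2% and 47.5% lay in a protein-coding gene of GENCODE 44, against 36.6%, 42.4%, 36.03% and 47.3% of the peaks on the chromosomes, each of which was within the exact interval of the placed peaks (33.2–49.2, 32.4–54.1, 33.3–61.4 and 38.3–56.8). The gene with the most was DLGAP2 (chromosome 8, 737628–1708476), which encodes a scaffold protein of the postsynaptic density, with 5, 1, 4 and 3 peaks on 6 alternate sequences that cover parts of the same locus. The counts per gene given here were not scaled to the length of the gene or of the alternate sequences over it. TTC34 (chromosome 1, 2636986–2801693) followed with 6, 2, 0 and 4 peaks on 1 sequence. ABR (chromosome 17, 1003519–1229738) had 9, 0, 0 and 1, and KIF26B (chromosome 1, 245154985–245709432), of the kinesin family, had 3, 3, 0 and 2. PTPRN2 (chromosome 7, 157539056–158587823), a receptor-type tyrosine phosphatase of secretory vesicles, had 3, 1, 0 and 1, and LINC02210-CRHR1 (chromosome 17, 45620344–45835826), a read-through gene that includes the receptor for corticotropin-releasing hormone, had 0, 3, 0 and 2. MAMDC2 (chromosome 9), ARHGEF10 and KBTBD11-OT1, which overlap on chromosome 8, and the unnamed gene ENSG00000284906 (chromosome 15) had 4 peaks each. The chromosomes whose alternate sequences had the most peaks were chromosome 17 with 65, chromosome 2 with 52 and chromosome 6 with 45, and on those of chromosome 2, with 2.12 Mb, 42 of the 52 were of 82-kDa ChAT after vehicle. Of these 42, 13 lay on chr2_KI270772v1_alt and 14 on chr2_KI270894v1_alt, which also held pentamer-rich peaks. On the alternate sequences of chromosome 6, which include versions of the major histocompatibility complex and hold 29.8 Mb, the lists had 10, 13, 3 and 19 peaks.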

How the data were processed

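ChIP-seq libraries for 82-kDa ChAT and SATB1 after vehicle or Aβ1–42 gave 1 peak list each, and 2 input samples were not analysed here. The submitters' processing notes name BWA and hg38. As the study's methods describe, the authors aligned reads with repeat masking, called peaks with MACS at p below 1e-05 and removed peaks also found in input. The deposited score is 10 times −log10 of the p-value, with a lowest value of 50.01 to 50.02 in the lists. Depth per library is not known from the lists. Peaks were grouped by sequence name. Per list, the 5 sequences with most peaks and the 3 densest with at least 3 peaks, the 3 highest scores, regions with all 4 lists and the 10 genes with most alternate peaks were named. Base sequences came from hg38, whose copy here carried no repeat masking, so repeats were described by pentamers, 51-mers, the period of 12-mers and blastn matches to RN7SL1 (299 nt) and the 45S unit. Shares have Clopper-Pearson, densities Poisson and differences Newcombe 95% intervals, which cover counting error only. Members and lists were chosen with earlier results of these data known. The windows, the 7SL match, the 12-mer, the ribosomal units, the placement with 500 nt on each side and the share of peaks in genes were chosen after seeing the data. The alternatives covered score, merging, denominators, thresholds, overlap and identity. Scripts were tested on simulated data. The tools were blastn 2.17.0, samtools 1.23.1 and Python 3.11.15 with scipy 1.17.1, numpy 2.4.6, numba 0.67.0, pysam 0.24.0, pandas 2.3.3 and matplotlib 3.10.9.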

Additional observations from a re-analysis of the deposited data

How the results depend on the processing

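Of 96 values recomputed under an alternative, 75 moved by less than their counting interval and 21 by more. Some of the 75 could not move. For SATB1 after Aβ1–42 the sequence left out was an alternate one, so shares on unlocalized and unplaced sequences stayed as they were. Intervals of small groups were wide. The pentamer-rich share of SATB1 after Aβ1–42 went from 41.8% to 30.8% with higher-scoring peaks and is among the 75. Counting only the higher-scoring part of each list (score no lower than its median), 82-kDa ChAT after vehicle had 11.5% of its peaks outside the chromosomes, 78.8% of these on unlocalized and unplaced sequences, and a density there 27.5 times that of the chromosomes. For SATB1 after Aβ1–42 the latter values were 26.8% and 2.35 times. The median length outside the chromosomes became 239 nt (from 195), 115 nt (from 126.5), 229 nt (from 151) and 130 nt (from 139) for 82-kDa ChAT after vehicle and Aβ1–42 and SATB1 after vehicle and Aβ1–42, and 30.4% of the unlocalized and unplaced peaks of 82-kDa ChAT after Aβ1–42 were multi-copy (from 39.2%). Where every 51-mer had to be found more than once, the multi-copy shares fell to 16.0%, 26.7%, 25.8% and 34.3%. The other values that moved were all of 82-kDa ChAT after vehicle. With peaks less than 1000 nt apart counted once, its share outside the chromosomes was 7.46%, with 69.2% of these on unlocalized and unplaced sequences. Without chr14_GL000225v1_random the share was 8.85% and the pentamer-rich share 73.1%. Over sequences with a peak in any list the density ratio was 24.01. Counterpart peaks of alternate peaks were 21.1% at 99% identity and 20.6% when placed with 500 nt on each side, a setting chosen after seeing the data. The 20.6% counts alternate peaks without a place as having no counterpart, and of the 156 placed peaks 26.9% had one (20.1–34.6). The cause of these changes was not tested beyond what each setting leaves out. No paired analysis was possible because each group is 1 library. With 1 library a group and unknown depth, a difference between lists cannot be told apart from a difference between libraries.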
